A study of Homo sapiens with 18 samples.

Results

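The genes described here are 37 genes of glycolysis and of the hypoxia response in C4-2B cells. They were chosen by name for their function, with earlier results of these data known. They comprise 16 glycolytic enzymes, 4 glucose and lactate transporters, 3 PFKFB enzymes that set the level of an activator of glycolysis, 2 kinases of pyruvate dehydrogenase, 3 genes of the oxygen sensor and 9 further targets of the hypoxia-inducible factor HIF. Of the 37 names, 36 were found in the tables, which listed 22136 genes at 2 days and 21276 genes at 7 days. The antisense transcript MXD1-AS1 was not found under that name and was not analysed here. C4-2B is a castration-resistant human prostate cancer line, grown here as wild-type cells in serum-containing RPMI medium. Poly(A) RNA was sequenced from 18 libraries in 6 groups of 3. At 2 days these were DMSO vehicle and 0.1 µM VIC-1911, an inhibitor of the mitotic kinase AURKA. At 7 days they were DMSO vehicle, 0.1 µM VIC-1911, 1 µM of the PARP inhibitor olaparib, and both drugs together at the same doses (the combination). The comparisons ask how these genes responded to each drug and to the pair, and whether the response to VIC-1911 differed between the time points.

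Glycolysis turns glucose into pyruvate in the cytosol. Hexokinases and phosphofructokinases carry out the early, regulated steps, the enzymes from aldolase to pyruvate kinase carry out the energy-yielding steps, and lactate dehydrogenase converts pyruvate to lactate, which leaves the cell through monocarboxylate transporters. When oxygen is short, the prolyl hydroxylases of the EGLN family stop marking HIF1A for destruction, and HIF then binds a short DNA core, ACGTG or GCGTG, at many of these same genes. Prostate luminal cells are known for secreting citrate.

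The HIF core was looked for in RefSeq promoter windows (GRCh38.p14), the 250 bases before each annotated start, on both strands. A window was found for 32 of the 37 genes, and 26 of the 32 (81.25%) had a window with ACGTG or GCGTG, beside 47.41% of all 27305 genes with a window, though the members had more windows per gene. Counted by window, 35 of 60 (58.33%) held the core, beside 43.21% of the 35116 windows of all genes. The members include genes chosen as HIF targets, a choice that favours the core in both counts. CACGTG, which contains ACGTG on both strands and so counts as 2 cores, stood in 8 of the 60 windows and in 6.345% of all windows. Of the 18 genes that rose in all 3 comparisons with vehicle at 7 days, 14 had the core and PGAM1, PKM, LDHB and EGLN3 did not. The 3 genes with a window that passed in none of these comparisons all had it. The 4 windows printed here were chosen after their values were seen. They are those of LDHA, which rose most under VIC-1911 and had 5 cores, of the HIF target BNIP3 with 6 cores, of the HIF target ANKRD37, which had 3 cores and passed no test, and of LDHB, which rose and had none. Capitals mark the core on either strand. The windows lie at chr11:18394313-18394562 (plus strand), chr10:131981924-131982173 (minus strand), chr4:185396591-185396840 (plus strand) and chr12:21657843-21658092 (minus strand), each directly before the first exon, and read 5′ to 3′ on the gene's strand.
LDHA: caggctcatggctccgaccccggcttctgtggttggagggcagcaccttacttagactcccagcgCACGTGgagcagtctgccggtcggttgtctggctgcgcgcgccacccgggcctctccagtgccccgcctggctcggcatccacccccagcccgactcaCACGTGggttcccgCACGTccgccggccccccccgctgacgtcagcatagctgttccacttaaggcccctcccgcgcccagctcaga
BNIP3: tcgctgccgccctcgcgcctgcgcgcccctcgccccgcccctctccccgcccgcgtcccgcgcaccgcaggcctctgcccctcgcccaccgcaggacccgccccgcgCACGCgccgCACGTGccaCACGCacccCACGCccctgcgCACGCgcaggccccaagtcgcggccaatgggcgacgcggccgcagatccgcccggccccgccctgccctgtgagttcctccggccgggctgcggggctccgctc
ANKRD37: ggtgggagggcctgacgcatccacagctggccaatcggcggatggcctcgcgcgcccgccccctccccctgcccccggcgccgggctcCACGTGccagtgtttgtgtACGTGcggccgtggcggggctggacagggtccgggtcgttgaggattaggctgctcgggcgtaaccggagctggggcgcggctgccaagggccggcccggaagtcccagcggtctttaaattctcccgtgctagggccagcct
LDHB: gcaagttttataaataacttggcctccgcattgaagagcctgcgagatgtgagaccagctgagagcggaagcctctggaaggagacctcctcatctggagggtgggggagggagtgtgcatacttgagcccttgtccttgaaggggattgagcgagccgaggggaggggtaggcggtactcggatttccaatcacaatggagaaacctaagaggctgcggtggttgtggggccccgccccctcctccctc
A match describes these letters only, and a window without one says only that the letters are not in it.

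Library totals were 3245273 to 7184420 counts at 2 days and 4967931 to 19684208 at 7 days. The olaparib library with the fewest counts (replicate 1) stood apart from its group on the third principal component of the 7-day libraries, which held 7.34% of the variance, with a score of 36.2 against -2.51 and -0.25. All 9 luminal prostate markers were expressed in every group, with KLK3 between 1244 and 2697 FPKM. FPKM is the fragments assigned to a gene, scaled to its length and to the size of the library, and is used here for levels. Of 13 markers of other cell types, KRT5, CD3E and DCN were at 0 in every library. CD68 was the highest, at 6.11 to 6.91 FPKM in 7-day vehicle and 9.29 to 10.1 under the combination. KRT14 was at 1.40 to 1.59 and 2.43 to 2.89 FPKM in these groups, and COL1A1 at 1.38 to 1.75 and 1.93 to 2.27. VWF (0.654 to 0.743 and 0.241 to 0.412) and SYP (1.05 to 1.35 and 0.446 to 0.599) were lower under the combination. The sum of the 13 was 9.52 to 10.1 FPKM in vehicle and 8.39 to 9.73 under VIC-1911 at 2 days, and 11.2 to 11.5 in vehicle, 11.3 to 11.9 under VIC-1911, 13.4 to 15.1 under olaparib and 14.7 to 16.0 under the combination at 7 days. The summed luminal markers were 2483 to 2660 FPKM in vehicle and 2336 to 2465 under VIC-1911 at 2 days. They were 4233 to 4276 FPKM in 7-day vehicle, the highest of the 6 groups, and 2598 to 3083 in the treated 7-day libraries. The part of these differences in the results was not tested. In bulk RNA, fewer cells of a kind and less RNA per cell cannot be told apart. At 7 days the vehicle and VIC-1911 libraries carry one run of consecutive library numbers and the olaparib and combination libraries a later run, so in comparisons across the runs the drug and the run of numbers cannot be told apart.

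At 2 days few of these genes moved, and at 7 days most of the glycolytic enzymes were higher under every treatment. A gene passed where edgeR's quasi-likelihood test gave an adjusted p under 0.05 over all tested genes. At 2 days 33 of the genes were tested, and VIC-1911 raised 4 and lowered 1, where 7.5% of all tested genes were higher and 7.19% lower. At 7 days 34 were tested. VIC-1911 raised 22 and lowered 4, where 26.7% of all genes were higher and 25.7% lower. Olaparib raised 23 and lowered 2 (all genes 28.1% and 25.9%), and the combination raised 20 and lowered 4 (all genes 28.6% and 28%). The 3 comparisons share the 3 vehicle libraries. The median log2 fold change of the tested members was 0.05 at 2 days and 0.26, 0.26 and 0.18 under VIC-1911, olaparib and the combination at 7 days, where the medians of all genes were 0.00, -0.01, 0.01 and 0.00. By the limits of the study, which join the adjusted p to a fold limit, none of the members both passed the test and was past 1.5-fold at 2 days, where 0.825% of all genes were higher and 1.33% lower. The fold limit at 7 days was 2-fold. Under VIC-1911 LDHA was higher past it and no member lower (all genes 3.46% and 3.43%), under olaparib no member was past it (all genes 3.63% and 3.53%), and under the combination PFKFB3 and EGLN3 were higher and none lower (all genes 4.55% and 4%). LDHA stayed past the limit in every alternative fit of its comparison, while PFKFB3 and EGLN3 under the combination lie close to it. Under VIC-1911 EGLN3 joined LDHA without vehicle replicate 1, and P4HA2, which was lower, without vehicle replicate 2. Under olaparib PFKFB3 was past the limit without scaling. Under the combination PFKFB3 alone was left without vehicle replicate 2, EGLN3 alone without vehicle replicate 3, and neither with limma on log2(FPKM + 1).

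**Figure D1:**
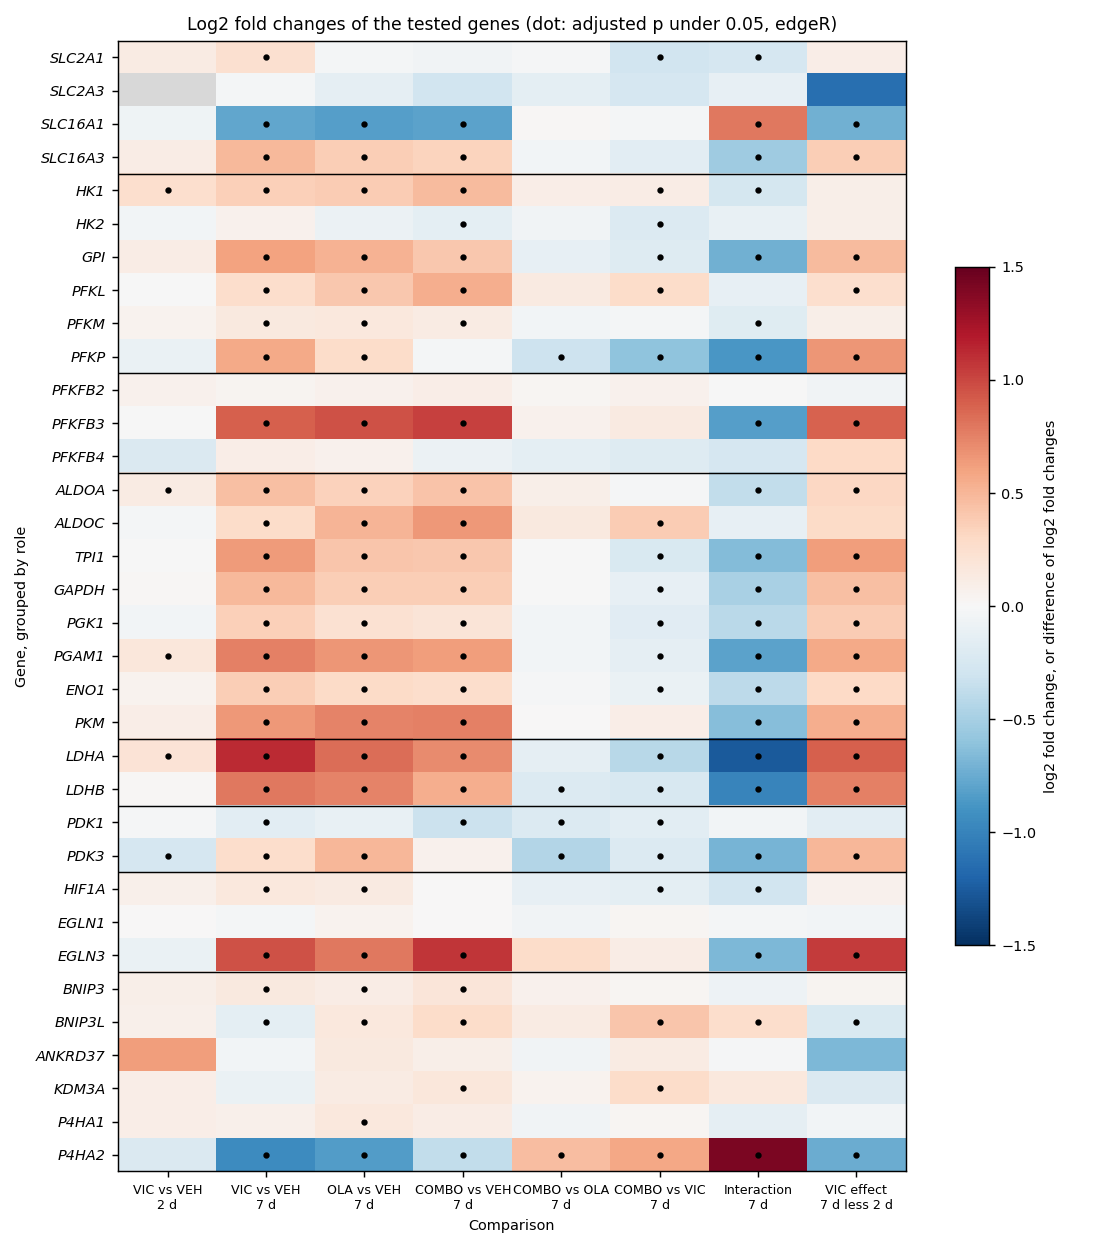
Log2 fold change of each tested gene (rows, grouped by role) in 8 comparisons (columns), from blue for lower to red for higher, with grey where a gene was not tested and a dot where the adjusted p was under 0.05 in edgeR's quasi-likelihood test; the last columns are the interaction of the drugs and the change of the VIC-1911 effect from 2 to 7 days. The enzymes from HK1 to LDHB are mostly red in the 3 comparisons with vehicle at 7 days, except HK2 (0.06, -0.09 and -0.15) and PFKP under the combination (-0.03), and SLC16A1 and P4HA2 are blue there.

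The 16 glycolytic enzymes moved mostly one way at 7 days. At 2 days 4 of the 16 were higher under VIC-1911 (HK1, ALDOA, PGAM1 and LDHA) and none was lower. At 7 days 15 were higher under VIC-1911, 15 under olaparib and 14 under the combination, with median log2 fold changes of 0.47, 0.39 and 0.42. HK2 was the exception in all 3, and PFKP was a second one under the combination. The 16 genes took 0.913% ± 0.0321 of all gene counts in 7-day vehicle (SD, n = 3), 1.34% ± 0.0301 under VIC-1911, 1.28% ± 0.0356 under olaparib and 1.27% ± 0.0234 under the combination, and no treated library overlapped vehicle. At 2 days the share was 1.52% ± 0.0578 in vehicle and 1.57% ± 0.0183 under VIC-1911, so the 7-day vehicle libraries held the lowest share of the 6 groups. Vehicle at 2 and at 7 days belongs to separate experiments and tables and was not compared by a test. The 8 HIF targets in the tables took much less, 0.0452% ± 0.00148 of counts in 7-day vehicle and 0.0462% ± 0.000403, 0.0503% ± 0.00149 and 0.0529% ± 0.00214 under VIC-1911, olaparib and the combination.

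**Figure D2:**
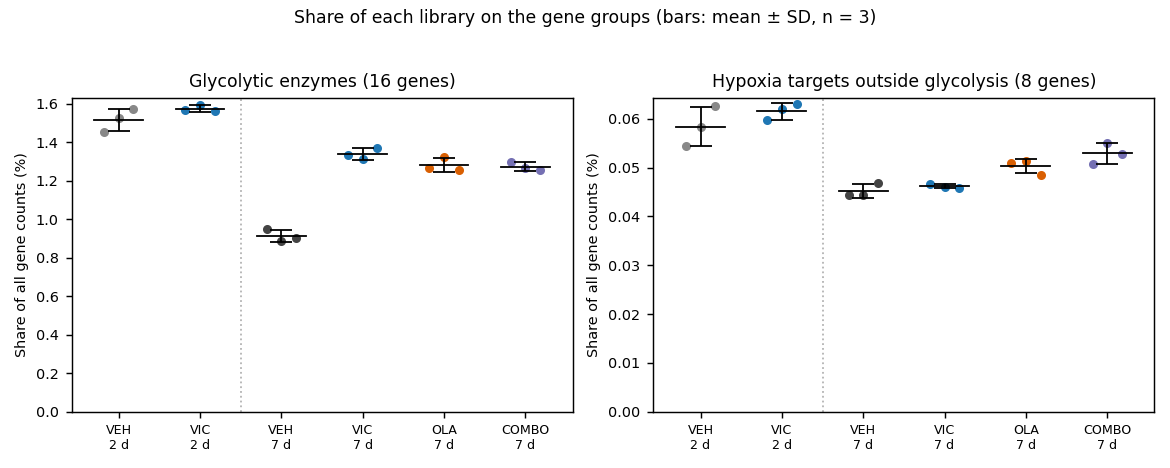
Share of all gene counts of a library (%) taken by the 16 glycolytic enzymes (left) and by 8 HIF targets outside glycolysis (right) in the 6 groups; points are libraries and bars the mean ± SD, n = 3. The glycolytic share of the 7-day vehicle libraries lies between 0.888% and 0.950%, below the 1.25% to 1.37% of the treated 7-day libraries.

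Among the transporters, the lactate exporter SLC16A3 rose and SLC16A1, a monocarboxylate transporter that carries lactate in either direction, fell under all 3 treatments at 7 days. SLC16A1 (chr1:112911847-112956196) stood at 48.1, 49.8 and 58.3 FPKM in 7-day vehicle, at 32.0, 30.5 and 31.4 under VIC-1911, at 31.1, 28.7 and 29.3 under olaparib and at 29.8, 29.5 and 29.8 under the combination. Every treated library was below every vehicle library, and the treated groups lay close together. The log2 fold change was -0.77 (SE 0.0548, adjusted p = 7.49e-13) under VIC-1911, -0.83 (SE 0.0554, adjusted p = 1.96e-13) under olaparib and -0.81 (SE 0.0544, adjusted p = 1.76e-13) under the combination. SLC16A3 was at 30.5, 21.0 and 28.4 FPKM in 7-day vehicle and between 31.6 and 39.5 in the treated libraries, again without overlap, with log2 fold changes of 0.49, 0.37 and 0.33 (adjusted p = 7.54e-06, 0.0003 and 0.000823). Per length, SLC16A1 thus made up 66.3% ± 4.66 of the summed FPKM of the pair in 7-day vehicle and 45.0% ± 0.524, 46.2% ± 1.99 and 47.2% ± 1.03 under the treatments. At 2 days the share was 43.7% ± 2.74 in vehicle and 40.8% ± 0.993 under VIC-1911, and neither gene passed the test (log2 fold changes of -0.07 and 0.11).

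The glucose importer SLC2A1, the widely expressed GLUT1, rose under VIC-1911 at 7 days alone among the 3 treatments. It stood at 20.3, 18.3 and 20.7 FPKM in 7-day vehicle and 25.2, 22.3 and 24.2 under VIC-1911, with a log2 fold change of 0.24 (SE 0.0549, adjusted p = 0.000587). Under olaparib the values were 19.5, 20.2 and 18.9 FPKM and under the combination 19.4, 18.7 and 18.9, within the vehicle range, and the log2 fold changes were -0.03 and -0.05. The difference between the combination and VIC-1911 passed the test (log2 fold change -0.28, adjusted p = 8.63e-05). SLC2A3, the high-affinity glucose transporter known from neurons, was close to absent, with 1 to 20 counts per library, and SLC2A1 made up 98.9% to 99.8% of the summed FPKM of the pair. SLC2A3 had too few counts for a test at 2 days and passed in none of the comparisons at 7 days.

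At the first committed steps, hexokinase shifted towards HK1. HK1, the broadly expressed hexokinase, was at 37.2, 34.2 and 38.3 FPKM in 2-day vehicle and 44.5, 45.1 and 41.5 under VIC-1911, a log2 fold change of 0.25 (SE 0.0548, adjusted p = 0.00105). At 7 days it was at 37.3, 35.4 and 37.2 FPKM in vehicle and between 45.7 and 51.4 in the treated libraries, with log2 fold changes of 0.36, 0.38 and 0.47 and no overlap. HK2, the inducible hexokinase of many tumours, did not pass under either single drug (0.06 and -0.09) and fell slightly under the combination (log2 fold change -0.15, SE 0.0571, adjusted p = 0.0304), with overlap between 8.53 to 9.79 FPKM in vehicle and 7.84 to 8.82. That last call was lost without vehicle replicate 1 or combination replicate 1, without scaling, with limma and with the 2 groups fitted alone. The share of HK1 in the summed FPKM of the pair was 80.0% ± 1.19 in 7-day vehicle and 82.9% ± 1.01, 84.7% ± 1.08 and 85.9% ± 0.654 under VIC-1911, olaparib and the combination.

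GPI, which turns glucose 6-phosphate into fructose 6-phosphate, was at 111, 101 and 101 FPKM in 7-day vehicle, 161, 164 and 166 under VIC-1911, 153, 154 and 149 with olaparib and 143, 137 and 137 under the combination. The 4 groups did not overlap, vehicle being lowest and VIC-1911 highest, with log2 fold changes against vehicle of 0.60, 0.53 and 0.41. The 3 phosphofructokinase genes, whose products form the mixed tetramers of the main control point, each had a course of its own. PFKL, the liver form, rose under the 3 treatments by log2 fold changes of 0.26, 0.41 and 0.54, highest under the combination. PFKM, the muscle form, rose by 0.15, 0.16 and 0.12, but none of the 3 calls held without vehicle replicate 2, and that under the combination was also lost without vehicle replicate 3 or combination replicate 1 and with the 2 groups fitted alone. PFKP, the platelet form, was at 26.7, 21.0 and 24.5 FPKM in 7-day vehicle, 38.7, 36.7 and 35.1 under VIC-1911, 27.4, 32.6 and 27.7 with olaparib and 23.8, 25.2 and 21.8 under the combination. It rose under VIC-1911 (log2 fold change 0.57, SE 0.0701, adjusted p = 5.77e-08) and under olaparib (0.28, SE 0.0715, adjusted p = 0.00153, a call lost without vehicle replicate 2), while under the combination its libraries overlapped vehicle (-0.03, SE 0.0714, adjusted p = 0.766). Of the summed phosphofructokinase FPKM, PFKP made up 22.7% ± 1.43 in 7-day vehicle, 27.5% ± 1.03 under VIC-1911, 22.6% ± 1.04 under olaparib and 18.6% ± 1.14 under the combination, and PFKL 36.1% ± 1.58, 35.3% ± 0.643, 39.4% ± 0.663 and 43.9% ± 0.304.

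Of the PFKFB enzymes, which make or remove the phosphofructokinase activator fructose 2,6-bisphosphate, only PFKFB3, the form with the strongest kinase activity, passed a test against vehicle. PFKFB3 (chr10:6144921-6326637) was at 3.48, 3.50 and 3.17 FPKM in 7-day vehicle, 6.92, 6.17 and 6.70 under VIC-1911, 6.09, 7.05 and 6.77 with olaparib and 6.99, 7.19 and 6.84 under the combination. The treated groups overlapped each other and all lay above vehicle. Its log2 fold changes were 0.90 (SE 0.0735, adjusted p = 1.71e-11), 0.96 (SE 0.0733, adjusted p = 3.67e-12) and 1.03 (SE 0.0717, adjusted p = 3.71e-13). At 2 days it was at 6.96, 6.78 and 8.71 FPKM in vehicle and 7.17, 7.27 and 7.07 under VIC-1911, with adjusted p = 0.982. PFKFB2 and PFKFB4 stayed between 4.61 and 5.54 and between 4.56 and 5.84 FPKM in all 7-day libraries and passed in none of the comparisons with vehicle. PFKFB3 therefore made up 25.1% ± 0.518 of the family's summed FPKM in 7-day vehicle and 37.4% ± 1.54, 38.1% ± 1.52 and 40.6% ± 1.45 under the treatments. The PFKFB3 gene overlaps 6 other annotated genes, and its counts are uncertain to that extent.

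**Figure D3:**
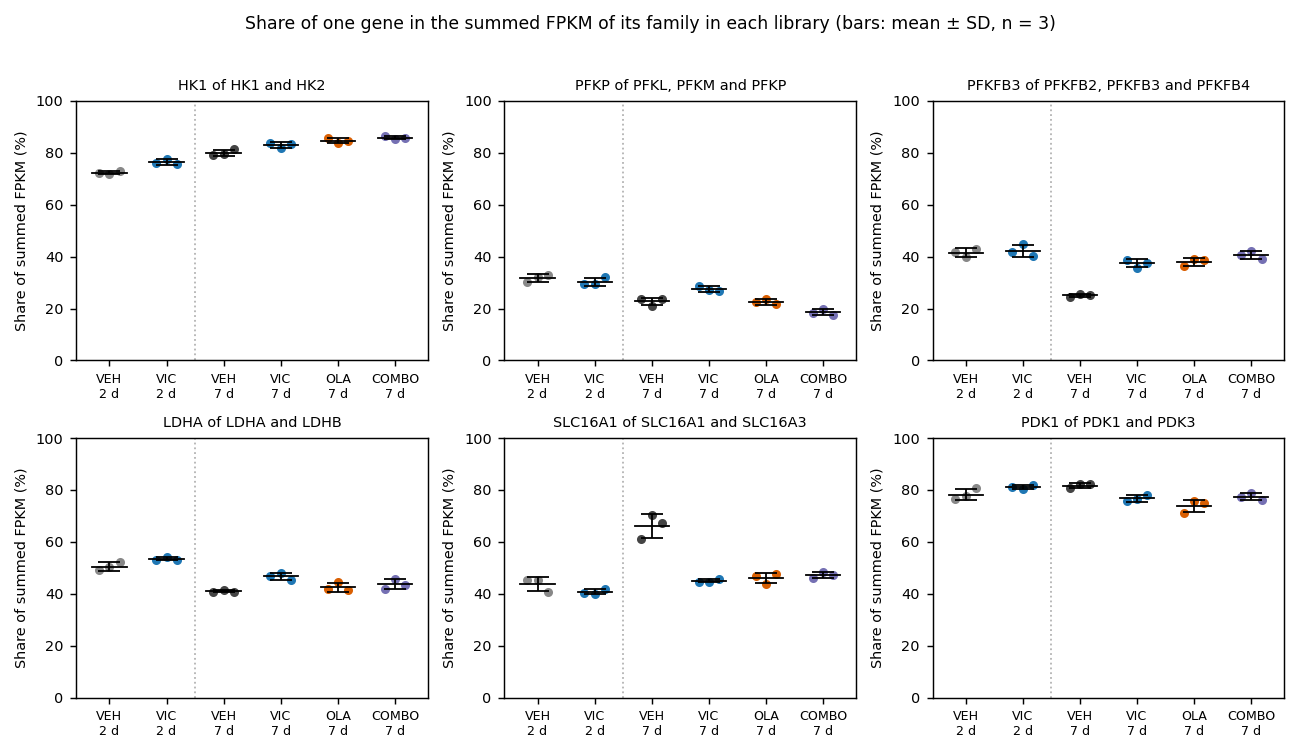
Share (%) of 1 gene in the summed FPKM of its family in each library of the 6 groups; points are libraries and bars the mean ± SD, n = 3. At 7 days PFKFB3 rises from 25.1% in vehicle to between 37.4% and 40.6% under treatment, SLC16A1 falls from 66.3% to between 45.0% and 47.2%, and PFKP is lowest under the combination at 18.6%.

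All 8 genes of the steps from aldolase to pyruvate kinase were higher in all 3 comparisons with vehicle at 7 days, and treated and vehicle libraries overlapped for none of them. GAPDH, the dehydrogenase of glyceraldehyde 3-phosphate and the most abundant of the genes per length, was at 973, 945 and 926 FPKM in 7-day vehicle, 1341, 1352 and 1425 under VIC-1911, 1186, 1312 and 1224 with olaparib and 1249, 1242 and 1195 under the combination. Its log2 fold changes were 0.49, 0.37 and 0.37. GAPDH is often used as a reference gene in expression assays, and in these libraries it was not level. PKM, pyruvate kinase, was at 254, 222 and 226 FPKM in 7-day vehicle and between 367 and 406 in the treated libraries, with log2 fold changes of 0.65 (SE 0.0444, adjusted p = 3.57e-13), 0.74 (SE 0.0445, adjusted p = 1.57e-14) and 0.75 (SE 0.0444, adjusted p = 8.39e-15). The counts do not separate its M1 and M2 splice forms. PGAM1, phosphoglycerate mutase, was at 94.1, 83.3 and 84.7 FPKM in 7-day vehicle and between 132 and 158 in the treated libraries, with log2 fold changes of 0.75 (SE 0.0475, adjusted p = 5.87e-14), 0.67 (SE 0.0478, adjusted p = 8.83e-13) and 0.62 (SE 0.0474, adjusted p = 2.71e-12). TPI1, triose phosphate isomerase, rose by 0.64, 0.42 and 0.40, ENO1, the enolase of most tissues, by 0.37, 0.28 and 0.26, and PGK1, phosphoglycerate kinase, by 0.36, 0.23 and 0.19. For these 3 genes VIC-1911 alone gave the highest of the 3 values.

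The 2 aldolases differed in which treatment gave the higher level. ALDOA, the form of muscle and of most tumours, rose by log2 fold changes of 0.45, 0.34 and 0.43. ALDOC, the brain form, was at 20.9, 16.9 and 17.3 FPKM in 7-day vehicle, 23.3, 22.7 and 23.2 under VIC-1911, 25.7, 27.1 and 26.5 with olaparib and 30.4, 28.8 and 27.9 under the combination, 4 groups without overlap. Its log2 fold changes were 0.27 (adjusted p = 0.00139), 0.51 (adjusted p = 3.26e-07) and 0.65 (SE 0.0666, adjusted p = 1.35e-09), of which that under VIC-1911 was lost without vehicle replicate 2. At 2 days ALDOA rose by 0.13 (SE 0.0421, adjusted p = 0.0358) and PGAM1 by 0.17 (SE 0.0479, adjusted p = 0.0117), the PGAM1 libraries overlapping at 157, 164 and 172 FPKM in vehicle and 170, 182 and 185 under VIC-1911. The ALDOA call was lost without any 1 of vehicle replicate 1 and the 3 VIC-1911 libraries, and the PGAM1 call without vehicle replicate 1, VIC-1911 replicate 2 or VIC-1911 replicate 3. Both were also lost with limma, and ALDOA with DESeq2 and without scaling. The 2-day count of higher genes fell from 4 to 2 without each of these last 3 libraries.

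Of the 16 enzymes, LDHA had the largest log2 fold change under VIC-1911 and under olaparib at 7 days, and PKM under the combination. LDHA (chr11:18394563-18408425), the subunit that favours lactate production and whose promoter with 5 HIF cores is printed above, was at 117, 102 and 110 FPKM in 7-day vehicle, 249, 239 and 250 under VIC-1911, 193, 215 and 188 with olaparib and 179, 187 and 171 under the combination. Each treated group lay wholly above vehicle, and VIC-1911 lay above both groups with olaparib. The log2 fold change was 1.12 under VIC-1911 (2.17-fold, SE 0.0496, adjusted p = 1.33e-17), 0.84 under olaparib (SE 0.0497, adjusted p = 1.18e-14) and 0.70 under the combination (SE 0.0494, adjusted p = 4.45e-13). At 2 days LDHA was at 321, 346 and 363 FPKM in vehicle and 390, 403 and 394 under VIC-1911, without overlap (log2 fold change 0.21, SE 0.0436, adjusted p = 0.000721). LDHB (chr12:21635342-21657842), the subunit that favours the return to pyruvate, was at 170, 144 and 159 FPKM in 7-day vehicle, 283, 260 and 300 under VIC-1911, 270, 268 and 267 with olaparib and 248, 221 and 222 under the combination. It rose by 0.79 (SE 0.0545, adjusted p = 4.85e-13), 0.75 (SE 0.0548, adjusted p = 1.52e-12) and 0.54 (SE 0.0544, adjusted p = 9.59e-10). LDHA made up 41.0% ± 0.409 of the summed FPKM of the pair in 7-day vehicle, 46.7% ± 1.26 under VIC-1911, 42.5% ± 1.69 under olaparib and 43.8% ± 1.99 under the combination.

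**Figure D4:**
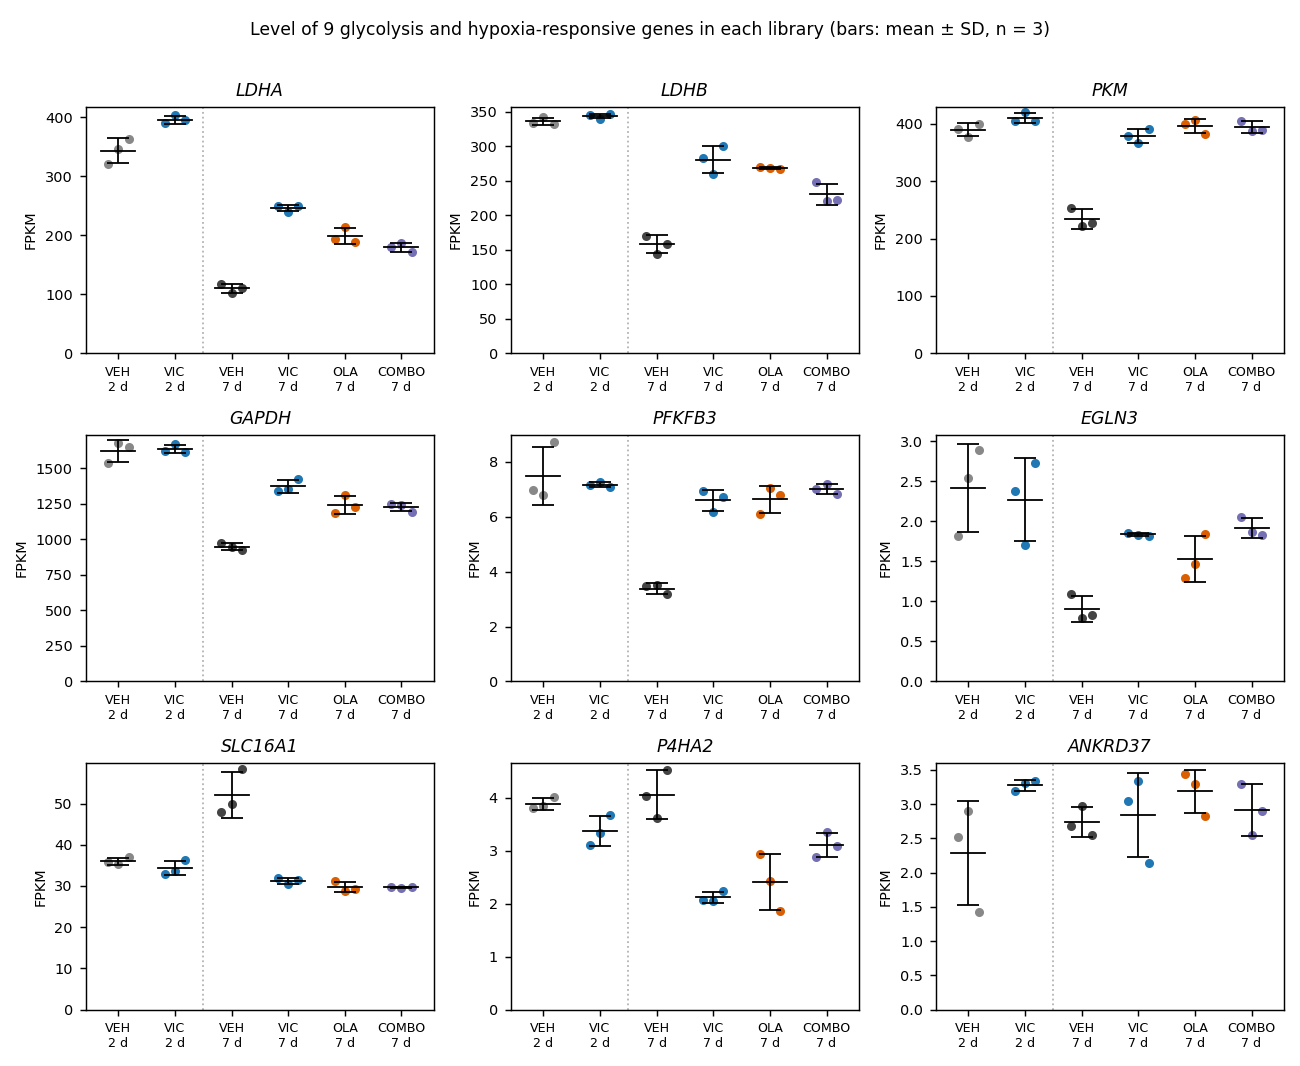
FPKM of 9 genes in each of the 18 libraries by group, with the 2-day groups left of the dotted line; points are libraries and bars the mean ± SD, n = 3. LDHA is at 102 to 117 FPKM in 7-day vehicle and at 171 to 250 in the treated 7-day libraries, SLC16A1 is highest in 7-day vehicle, and ANKRD37 overlaps between all 7-day groups.

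The pyruvate dehydrogenase kinases PDK1 and PDK3, which switch off the entry of pyruvate into the mitochondrial cycle, went apart. PDK1 was at 8.73, 8.64 and 9.15 FPKM in 7-day vehicle, 8.44, 8.08 and 7.89 under VIC-1911, 7.92, 8.68 and 7.97 with olaparib and 6.79, 7.81 and 6.72 under the combination. It fell under the combination (log2 fold change -0.32, SE 0.0614, adjusted p = 5.76e-05) and slightly under VIC-1911 (-0.16, SE 0.0617, adjusted p = 0.0284), a call lost without vehicle replicate 3, VIC-1911 replicate 2 or VIC-1911 replicate 3, and also without scaling, without the count minimum and with limma. PDK3 was at 2.11, 1.87 and 1.96 FPKM in 7-day vehicle, 2.73, 2.46 and 2.22 under VIC-1911, 3.18, 2.80 and 2.67 with olaparib and 1.98, 2.11 and 2.12 under the combination. It rose under each single drug (0.26, adjusted p = 0.00569, and 0.50, adjusted p = 3.47e-06), the first call being lost without vehicle replicate 2 or VIC-1911 replicate 1, while the combination overlapped vehicle (0.06, adjusted p = 0.535). At 2 days PDK3 was the 1 gene that was lower under VIC-1911, at 3.18, 2.89 and 2.94 FPKM in vehicle and 2.35, 2.56 and 2.61 under the drug (log2 fold change -0.25, SE 0.0833, adjusted p = 0.0344), and the count was 0 without any 1 of the 3 vehicle libraries, VIC-1911 replicate 1 or VIC-1911 replicate 2, and also without the count minimum, with DESeq2 and with limma.

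Of the oxygen sensor, EGLN3 moved most. EGLN3 (chr14:33924227-33951074), a HIF prolyl hydroxylase that is itself a HIF target, was at 1.09, 0.793 and 0.833 FPKM in 7-day vehicle, 1.86, 1.83 and 1.82 under VIC-1911, 1.29, 1.46 and 1.84 with olaparib and 2.06, 1.87 and 1.83 under the combination, without overlap with vehicle. The log2 fold change was 0.96 (SE 0.174, adjusted p = 3.02e-05), 0.79 (SE 0.176, adjusted p = 0.000381) and 1.07 (SE 0.168, adjusted p = 3.26e-06). It had 20 to 129 counts per library, so its errors are wider than those of the enzymes. EGLN1, the main hydroxylase of HIF in normal oxygen, passed in no comparison and stayed between 8.04 and 8.84 FPKM at 7 days. HIF1A, the regulated subunit of HIF, was at 16.9, 16.2 and 16.0 FPKM in 7-day vehicle, 18.7, 18.2 and 19.7 under VIC-1911, 18.2, 18.6 and 17.9 with olaparib and 16.2, 16.4 and 17.2 under the combination. Its transcript was slightly higher under each single drug (log2 fold changes of 0.16 and 0.14, adjusted p = 0.00848 and 0.0259) and overlapped vehicle under the combination (0.01, adjusted p = 0.862). The call under VIC-1911 was lost without vehicle replicate 2 or VIC-1911 replicate 3, and that under olaparib without vehicle replicate 2 or 3 or olaparib replicate 2 and with DESeq2. The activity of HIF is set mainly by the stability of its protein, which was not measured here.

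Among the HIF targets outside glycolysis, P4HA2 had the largest changes. Of the 9, CA9, a carbonic anhydrase of the cell surface, and ADM, a vasodilator peptide, had 0 to 5 and 0 to 8 counts per library and were below the count minimum. At 7 days ADM had 8, 4 and 7 counts under the combination and 0 to 3 in every other library. In a fit without the count minimum it passed as higher under the combination than under olaparib or VIC-1911, past 2-fold in both, and in the interaction, but not against vehicle, and these calls rest on those few counts. Of the 6 that were tested, 1 was higher and 2 were lower under VIC-1911 at 7 days (all genes 26.7% higher and 25.7% lower). Under olaparib 3 were higher and 1 was lower (all genes 28.1% and 25.9%). The combination gave the same counts, 3 higher and 1 lower (all genes 28.6% and 28%). P4HA2 (chr5:132190147-132227853), a subunit of the collagen prolyl hydroxylase, was at 4.04, 3.62 and 4.53 FPKM in 7-day vehicle, 2.07, 2.05 and 2.24 under VIC-1911, 2.93, 2.42 and 1.87 with olaparib and 2.89, 3.35 and 3.08 under the combination. All treated libraries were below vehicle, the combination least so. The log2 fold change was -0.95 (SE 0.133, adjusted p = 6.36e-07), -0.83 (SE 0.132, adjusted p = 3.87e-06) and -0.37 (SE 0.122, adjusted p = 0.0111). The related subunit P4HA1 had log2 fold changes of 0.08, 0.16 and 0.11 and passed under olaparib alone (adjusted p = 0.0359), with overlapping libraries. That call was lost with RLE scaling, DESeq2 and limma, and without any 1 of vehicle replicates 1 and 2 and the 3 olaparib libraries.

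BNIP3 and BNIP3L, receptors for the removal of mitochondria, moved little. BNIP3 was at 91.9, 89.6 and 93.8 FPKM in 7-day vehicle and between 93.1 and 106 in the treated libraries, with log2 fold changes of 0.14, 0.11 and 0.18 (adjusted p = 0.0112, 0.0461 and 0.00183). The call under VIC-1911 was lost without vehicle replicate 1 or 2. The call under olaparib was lost with RLE scaling, with DESeq2, with the 2 groups fitted alone and without any 1 of the 3 vehicle libraries and olaparib replicates 1 and 2. BNIP3L was the 1 gene that passed in opposite directions. It was at 25.2, 26.5 and 27.3 FPKM in 7-day vehicle, 24.5, 24.6 and 24.6 under VIC-1911, 28.6, 29.7 and 30.2 with olaparib and 30.5, 33.9 and 31.6 under the combination. The log2 fold change was -0.14 (SE 0.0509, adjusted p = 0.0211), 0.15 (SE 0.0505, adjusted p = 0.0121) and 0.28 (SE 0.0495, adjusted p = 1.94e-05), but the fall under VIC-1911 was lost without vehicle replicate 3 or VIC-1911 replicate 3, without scaling, without the count minimum and with limma, and the rise under olaparib without vehicle replicate 1 or olaparib replicate 3. Without vehicle replicate 3 or VIC-1911 replicate 3 the count of lower genes under VIC-1911 at 7 days was 2 instead of 4. KDM3A, a histone demethylase, passed against vehicle under the combination alone (0.17, adjusted p = 0.0244), a call lost with DESeq2 and without vehicle replicate 2, vehicle replicate 3 or combination replicate 2. ANKRD37, an ankyrin-repeat protein often used as a marker of hypoxia, was at 2.69, 2.97 and 2.55 FPKM in 7-day vehicle and between 2.14 and 3.43 in the treated libraries and passed nowhere, its 2-day log2 fold change being 0.62 (95% interval 0.01 to 1.24, adjusted p = 0.177) with 6 counts in 1 vehicle library.

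Set against olaparib alone, the combination raised none of the enzymes past the test, and set against VIC-1911 alone it raised 3 and lowered 10 of the 16. Against olaparib, 5 of the 34 genes passed, where 11.5% of all genes did, 4.55% higher and 6.95% lower. P4HA2 was higher (log2 fold change 0.47, SE 0.133, adjusted p = 0.0204, libraries overlapping). Lower were PDK3 (-0.44, SE 0.0753, adjusted p = 0.000195), PFKP (-0.31, SE 0.0703, adjusted p = 0.00377), LDHB (-0.20, SE 0.0537, adjusted p = 0.0117) and PDK1 (-0.20, SE 0.0619, adjusted p = 0.0289). The calls of P4HA2, LDHB and PDK1 were lost without combination replicate 3, which left 2 of the 5, P4HA2 also without olaparib replicate 3 or combination replicate 2, PDK1 also without olaparib replicate 2, olaparib replicate 3 or combination replicate 1, and PFKP without olaparib replicate 2. With limma PDK3 alone passed, and DESeq2 lost PDK1.

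Against VIC-1911, 20 of the 34 genes passed, 6 higher and 14 lower, where 20.7% of all genes were higher and 22.2% lower. The 14 lower genes became 9 without scaling, where ENO1, PGAM1, GAPDH, PDK1 and PDK3 were lost. With 1 library left out they were 10 to 12, the losses being among these 5 genes and HIF1A. The largest falls were those of PFKP (log2 fold change -0.60, SE 0.069, adjusted p = 3.61e-08), LDHA (-0.42, SE 0.0483, adjusted p = 4.22e-08), LDHB (-0.24), TPI1 (-0.23) and HK2 (-0.21), with SLC2A1 among the transporters. Higher were P4HA2 (0.58, SE 0.135, adjusted p = 0.000914), BNIP3L (0.42, SE 0.0496, adjusted p = 5.75e-08), ALDOC (0.38), PFKL (0.28), KDM3A (0.27) and HK1 (0.12, adjusted p = 0.0392), of which HK1 lost its call without VIC-1911 replicate 2, combination replicate 2 or combination replicate 3, without the count minimum, with DESeq2, with limma and with the 2 groups fitted alone. PKM and PFKFB3 had values of 0.10 (95% interval 0.01 to 0.19) and 0.13 (95% interval -0.00 to 0.26) and did not pass. The number range of the libraries and olaparib cannot be told apart in this comparison either.

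The interaction asks whether the effects of the drugs add up on the log2 scale. It is the effect of VIC-1911 in the presence of olaparib minus its effect alone, and each of these effects lies within one run of library numbers. The effect with olaparib comes from the later run alone and the effect without it from the earlier run alone. A VIC-1911 effect that differs between the runs and a change of it by olaparib therefore cannot be told apart. Of the 34 genes 22 passed, 19 negative and 3 positive, where 21% of all genes were positive and 22.9% negative. Among the 16 glycolytic enzymes 13 were negative and none positive, with a median of -0.45. LDHA had the largest negative value, -1.26 (SE 0.0693, adjusted p = 5.81e-15), since the single effects of 1.12 and 0.84 sum to 1.96 and the combination stood at 0.70. LDHB (-0.99, SE 0.0765), PFKP (-0.88, SE 0.0993), PFKFB3 (-0.83, SE 0.0986), PGAM1 (-0.80, SE 0.0664) and GPI (-0.72, SE 0.0578) followed, with adjusted p between 9.47e-12 and 5.27e-08 for the 3 first of these and 4.72e-11 and 2.04e-11 for the others. The positive values were those of genes that fell or moved apart, P4HA2 with 1.41 (SE 0.188, adjusted p = 4.14e-07), SLC16A1 with 0.79 (SE 0.0782, adjusted p = 1.52e-09) and BNIP3L with 0.27 (SE 0.0708, adjusted p = 0.00279). The same 3 vehicle libraries enter both single effects with a minus sign and the interaction with a plus sign.

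**Figure D5:**
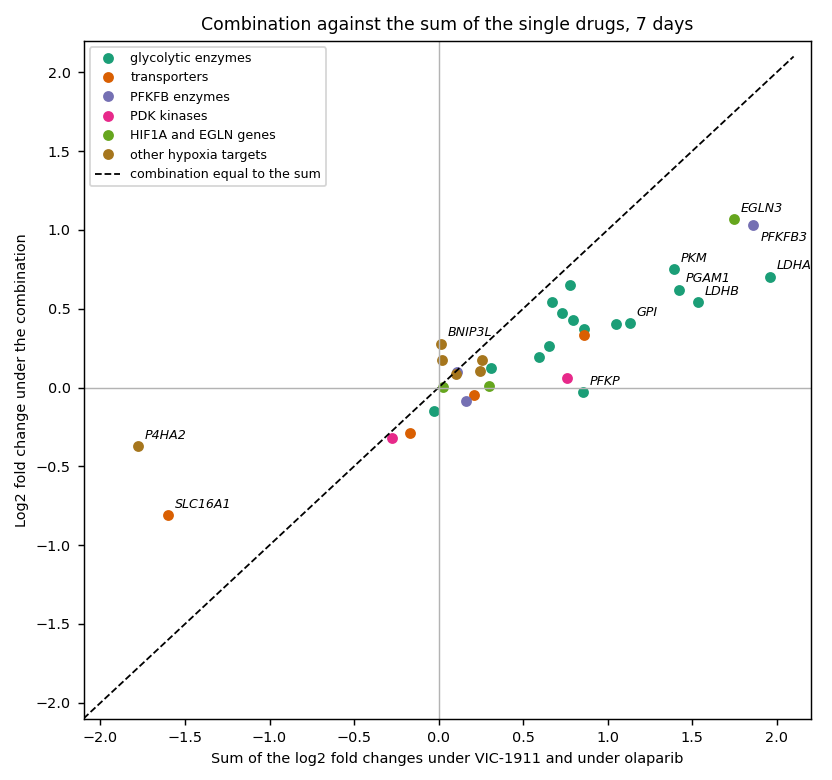
Log2 fold change of each of 34 genes under the combination (vertical axis) against the sum of its log2 fold changes under VIC-1911 and olaparib (horizontal axis), all against the same 3 vehicle libraries at 7 days; colours mark roles and the dashed line marks equality. LDHA lies at 1.96 and 0.70, and the genes with large sums lie on the side of the line nearer to 0 on the vertical axis.

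The response to VIC-1911 was larger in the 7-day than in the 2-day libraries for most of the enzymes. The 2 sets come from separate experiments with separate runs of library numbers. Treatment time and experiment therefore cannot be told apart in this difference. In a fit of the vehicle and VIC-1911 libraries of both times, the difference of the effects (7 days minus 2 days) passed for 19 of 34 genes, 16 positive and 3 negative, where 14.6% of all genes were positive and 14.2% negative. Of the glycolytic enzymes 12 of 16 were positive, with a median of 0.42. The largest differences were those of EGLN3 (1.04, SE 0.289, adjusted p = 0.00449), LDHA (0.90, SE 0.0646, adjusted p = 1.06e-15), PFKFB3 (0.89, SE 0.119, adjusted p = 5.41e-08), LDHB (0.75, SE 0.0697, adjusted p = 2.93e-12), PFKP (0.66, SE 0.0908, adjusted p = 9.8e-08) and TPI1 (0.63, SE 0.0626, adjusted p = 2.43e-11). EGLN3 lost its call without vehicle replicate 3 of 2 days. Negative were P4HA2 (-0.74, SE 0.192, adjusted p = 0.00233), SLC16A1 (-0.72, SE 0.0811, adjusted p = 7.19e-10) and BNIP3L (-0.23, SE 0.078, adjusted p = 0.0194), the last lost without VIC-1911 replicate 3 of 2 days, vehicle replicate 2 of 7 days or VIC-1911 replicate 2 of 7 days, without scaling and with DESeq2. HK1, which rose at both times, had a difference of 0.09 (SE 0.0738, adjusted p = 0.418). The effects at both times are each set against their own vehicle, and for LDHA that vehicle was at 321 to 363 FPKM at 2 days and 102 to 117 at 7 days.

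Further genes of glucose and pyruvate metabolism, came from a list of 41. Of 31 tested at 7 days, 12 were higher and 10 lower under VIC-1911 (all genes 26.7% and 25.7%). Olaparib raised 10 and lowered 9 (all genes 28.1% and 25.9%), the combination raised 8 and lowered 10 (all genes 28.6% and 28%), and the median log2 fold changes were -0.09, 0.04 and 0.05. PCK2, the mitochondrial enzyme that makes phosphoenolpyruvate, fell from 246 ± 11.3 FPKM in 7-day vehicle to 16.5 ± 1.31 under VIC-1911, 11.6 ± 0.887 under olaparib and 12.3 ± 0.648 under the combination (SD, n = 3), with log2 fold changes of -3.94, -4.40 and -4.33, and it fell by 1.08 on the log2 scale at 2 days. TIGAR, which removes fructose 2,6-bisphosphate, rose to 3.51 ± 0.574 FPKM under olaparib and 3.76 ± 0.305 under the combination at 7 days. The log2 fold changes were 1.19 and 1.36. Its libraries were at 1.23 to 1.67 FPKM in 7-day vehicle and at 2.24 to 2.54 under VIC-1911, without overlap. At 2 days TIGAR rose under VIC-1911 by 0.50. PGM2, a phosphoglucomutase, rose by 0.58, 0.80 and 1.06. DLAT, a subunit of pyruvate dehydrogenase, rose under VIC-1911 by 0.65. Its mean was 17.8 FPKM in 7-day vehicle, 28.8 under VIC-1911, 23.0 under olaparib and 19.4 under the combination.

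Of 39 tested genes from a list of 45 other hypoxia-responsive genes, 14 were higher and 10 lower under VIC-1911 at 7 days (all genes 26.7% and 25.7%). Olaparib raised 14 and lowered 8 (all genes 28.1% and 25.9%) and the combination raised 15 and lowered 10 (all genes 28.6% and 28%), and the medians were 0.04, 0.09 and 0.11. The genes with the lowest adjusted p went both ways. STC2, a secreted glycoprotein, was at 73.8 to 80.8 FPKM in 7-day vehicle and at 12.5 to 13.7 in the treated libraries, with log2 fold changes of -2.60 for VIC-1911, -2.59 for olaparib and -2.52 for the combination. DDIT4, an inhibitor of mTORC1, fell by 1.97, 2.04 and 1.96 on the log2 scale and the stress transcription factor DDIT3 fell by 2.38, 2.30 and 1.95. CA12, a carbonic anhydrase of the cell surface, rose by 1.05, 0.91 and 1.07 and HIGD1A, a mitochondrial protein, by 0.69, 0.70 and 0.82. NDRG1, a stress-responsive protein, rose by 0.94 under olaparib and 1.44 under the combination. Under VIC-1911 its mean was 45.4 FPKM against 39.2 in 7-day vehicle, without overlap. Among 12 tested regulators of HIF, EPAS1, which encodes HIF2A, was higher at 7 days by 1.74, 2.32 and 2.68, though from 0.134 ± 0.0606 FPKM in vehicle. CITED2 (0.24, 0.56 and 0.75) and RBX1 (0.24, 0.33 and 0.41) were also higher in each comparison. The ubiquitin ligases SIAH1 (-1.13, -0.97 and -0.77) and SIAH2 (-0.65, -0.63 and -0.74) were lower in each comparison. EP300 was lower under olaparib (-0.21) and the combination (-0.41). CUL2 was higher under VIC-1911 alone. Under the combination alone, ARNT2 and VHL were higher and ARNT lower, while HIF1AN and CREBBP passed nowhere against vehicle. The shares of all genes called are those given above.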

How the data were processed

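Reads from 18 poly(A) RNA libraries of C4-2B cells were filtered by the authors with Trimmomatic, aligned to GRCh38 with STAR (version 2.6.0 in the submitters' processing notes) and counted per gene, and the counts were deposited raw, with 1 table per time point. The strand setting and the handling of reads with several matches are not given in the sources used here. The FPKM values were computed by the authors with an in-house script and are used as deposited. The study's methods and the labels name different RNA extraction and library kits. All 36 columns of measurements were used.

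A gene entered the analysis where 3 or more libraries of the fit had 10 counts or more, which left 12241 genes in the 6 libraries of 2 days and 14409 in the 12 of 7 days. Counts were analysed with edgeR 4.0.16 in R 4.3.3 (TMM scaling, glmQLFit, glmQLFTest). The VIC-1911 effects at both times were compared in 1 fit of 12 libraries and 13832 genes. All groups of a fit share 1 estimate of the spread, and the p-values are Benjamini-Hochberg adjusted over every gene tested. SE is the absolute log2 fold change divided by the root of the F statistic. The study used DESeq2, which served as an alternative here (version 1.42.0). The others were RLE scaling, library size alone as the scale, all genes without a count minimum, limma 3.58.1 on log2(FPKM + 0.1) and log2(FPKM + 1) for genes with a mean FPKM of 1 or more, a block for the replicate number, the compared groups alone and each library left out. The code was tested on simulated data. Library totals (3245273 to 19684208 counts) and the 3 libraries per group set the precision. The labels do not say that replicates are separate cultures, so the p-values measure the spread between these libraries, which may be technical.

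The genes and the further lists were chosen with earlier results of these data known. Full statistics are given for up to 6 members per direction and comparison that passed the test with the largest absolute log2 fold change, and up to 3 genes per direction of each further list are named by lowest adjusted p. Promoter windows and gene positions are from RefSeq (GRCh38.p14). Of 36 genes with a position, 19 overlap another annotated gene, so their counts are uncertain to that extent.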

Additional observations from a re-analysis of the deposited data

Results flagged for a closer look

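Among the genes with full statistics, 9 passed the interaction test at 7 days, which compares the effect of VIC-1911 with and without olaparib. That number is set by the limit on genes given full statistics per direction. Of the 34 tested members 22 passed, 19 negative and 3 positive, where 22.9% of all genes were negative and 21% positive. The interaction was -1.26 for LDHA, -0.99 for LDHB, -0.88 for PFKP, -0.83 for PFKFB3, -0.80 for PGAM1 and -0.72 for GPI, and 0.27 for BNIP3L, 0.79 for SLC16A1 and 1.41 for P4HA2, on the log2 scale. For LDHA the mean was 110 FPKM in vehicle, and every treated group stood higher, while for SLC16A1 the mean was 52.1 FPKM in vehicle and every treated group stood lower.

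Likewise, 9 of the genes with full statistics passed the test of the VIC-1911 effect at 7 days minus that at 2 days. The same limit sets this number, and treatment time and experiment cannot be told apart in this test. Of the 34 tested members 19 passed, 16 positive and 3 negative, where 14.6% of all genes were positive and 14.2% negative. The difference was 1.04 for EGLN3, 0.90 for LDHA (0.895 before rounding), 0.89 for PFKFB3, 0.75 for LDHB, 0.66 for PFKP and 0.63 for TPI1, and -0.23 for BNIP3L, -0.72 for SLC16A1 and -0.74 for P4HA2. In the same fit HK1 had a difference of 0.09 with an adjusted p of 0.418 in edgeR's quasi-likelihood test. Groups of 3 libraries are too small for a test of single outlying libraries, and no column of the tables was left unused.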

How the results depend on the processing

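None of the 68 named results changed direction in 1019 alternative values, of which 946 kept their side of the threshold and 73 lost it. The 68 had already passed the main test with the largest changes, and the alternatives refit the same libraries. They do not stand for the members that were not named. The count of members higher under VIC-1911 at 2 days was 4 and became 2 with limma on either FPKM scale and 2 to 5 with a library left out. The 1 lower member at 2 days became 0 without the filter on counts, with DESeq2 and with both limma settings, and 0 to 1 with a library left out. The 4 members lower under VIC-1911 at 7 days became 2 without scaling, without the filter and with both limma settings, and 2 to 4 with a library left out. The 5 members that differed between the combination and olaparib became 8 without the filter, 1 with both limma settings and 2 to 5 with a library left out. The 14 members lower under the combination than under VIC-1911 became 9 without scaling. The counts of members higher at 7 days ranged from 17 to 22 under VIC-1911 (22 in the report), 18 to 24 under olaparib (23) and 18 to 22 under the combination (20), the interaction from 19 to 23 (22) and the time difference from 17 to 20 (19). The causes of these changes were not tested.

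Libraries with the same replicate number shared little, with correlations of their deviations from the group means between -0.00287 and 0.0438 at 2 days and between -0.0356 and 0.111 at 7 days, where 1 of 18 was over 0.1. With the replicate number as a block, 5 and 1 members were higher and lower under VIC-1911 at 2 days, 22 and 4 at 7 days, 6 differed between the combination and olaparib and 22 had an interaction. The time difference was not run on FPKM values, since the tables were made separately. Depth limits CA9, ADM and SLC2A3, with 0 to 20 counts per library, and 3 libraries per group limit small effects.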

Other observations

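The pentose phosphate and glycogen genes, which lead glucose away from glycolysis, had members that passed in each direction. Of 15 tested genes of a list of 16, VIC-1911 raised 6 and lowered 4 at 7 days (all genes 26.7% and 25.7%), olaparib raised 6 and lowered 4 (28.1% and 25.9%) and the combination raised 6 and lowered 5 (28.6% and 28%), with medians of 0.11, 0.07 and 0.07. At 2 days GYS1 rose by 0.33 and PGD fell by 0.15 on the log2 scale. PYGL, the liver form of glycogen phosphorylase, rose by 1.05, 1.16 and 1.24 at 7 days, and GYS1, the glycogen synthase of muscle and most other tissues, rose by 0.40, 0.60 and 0.65. PYGB, the brain form of glycogen phosphorylase, fell by 0.42, 0.59 and 0.72, and H6PD, the hexose 6-phosphate dehydrogenase of the endoplasmic reticulum, fell by 0.46, 0.26 and 0.34.

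Among 5 genes of glucose sensing, TXNIP, which restrains glucose uptake and is induced by glucose through MLXIP and MLXIPL, fell by 0.70, 0.86 and 0.75 under VIC-1911, olaparib and the combination at 7 days. MLXIPL fell by 0.73, 0.51 and 0.67, and MLXIP rose by 0.40, 0.32 and 0.34. At 2 days TXNIP did not pass, while ARRDC4, a relative of TXNIP, and MLX, the partner of both factors, rose by 0.33 and 0.23. For TXNIP the interaction of the drugs was 0.82 and the 7-day effect of VIC-1911 minus its 2-day effect was -0.68, and both passed the test.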
